A study of Mus musculus with 18 samples.

Results

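Untreated cells of the mouse mammary carcinoma line 4T1 were set against untreated cells of MC38, a colon adenocarcinoma line, and LLC, the Lewis lung carcinoma line. A gene was counted when 4T1 differed from both other lines in the same direction, each difference having an adjusted p under 0.05 in edgeR's quasi-likelihood test with Benjamini-Hochberg adjustment. Left out by the rule were histone genes (symbols Hist1h to Hist4h) and the small RNA genes Rn7sk, Rn7s1, Rn7s2, Rmrp and Rpph1. Its stated reason was that RNA selection differs between the lines, and the share of counts these genes took differed as well. Of 55450 genes in the table, 15315 passed the filter on low counts and were tested, and 8907 of these (58.2%) were counted. In 4T1, 4458 genes were higher than in both lines (29.1% of the genes tested) and 4449 were lower than in both (29.0%). With a difference of at least 2-fold in each comparison, 2076 genes were higher (13.6%) and 2182 were lower (14.2%), 27.8% of the genes tested in all. Each comparison alone called most genes: 84.4% over MC38 (40.4% higher and 44.0% lower in 4T1), 86.6% over LLC (43.1% higher and 43.5% lower) and 77.3% between MC38 and LLC. The same rule with MC38 as the line set against the others counted 6502 genes (42.5%), and with LLC it counted 7702 genes (50.3%).

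The study gave cultures of the 3 lines either the solvent DMSO or 100 µM sildenafil citrate, an inhibitor of the cGMP-degrading phosphodiesterase PDE5, and sequenced their RNA. Its title concerns PDE5, the cholesterol transporter NPC1 and metastasis. The comparison used the 9 DMSO libraries, 3 per line, all with the genotype given as W.T. 4T1 cells had been grown in RPMI 1640 medium and kept for 24 hours in DMSO, MC38 cells in DMEM for 24 hours in DMSO, and LLC cells in DMEM for 48 hours in DMSO. All media held fetal bovine serum, L-glutamine, penicillin and streptomycin. 4T1 was derived from a BALB/c mouse and the other lines from C57BL/6 mice, the strain of the reference genome. By the rule, RNA selection differed between the lines too. Line, tumour type, strain, medium, RNA selection and, for LLC, hours therefore cannot be told apart. Whether the 3 libraries of a line stem from 3 different cultures is not stated, so the p-values refer to the scatter among libraries, and that scatter could be technical.

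Epithelial cells are joined by E-cadherin junctions, tight junctions and desmosomes, and they hold keratin filaments. In the mesenchymal state these genes are repressed by the zinc finger factors ZEB1, ZEB2, SNAI1 and SNAI2, which bind the E-box CAGGTG, and cells make fibrillar collagens and N-cadherin instead. Carcinoma lines differ in where they lie between these states, and 4T1 is widely used as a line that spreads from the mammary gland to distant organs.

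Total counts ranged over 41621067 to 53785071 per 4T1 library, 30844073 to 31777699 per MC38 library and 26348654 to 31102300 per LLC library. The left-out genes took 0.00510% to 0.00576% of the counts in 4T1, against 8.11% to 9.92% in MC38 and 6.27% to 9.02% in LLC. Of small nucleolar RNA genes, which the rule did not leave out, 0 of 60 tested were higher and 59 were lower in 4T1. Of 83 sense-intronic genes, 2 were higher and 72 were lower. Processed pseudogenes took 1.15% to 1.17% of the counts in 4T1, against between 0.0981% and 0.105% in MC38 and between 0.102% and 0.113% in LLC, and 487 of 641 were higher in 4T1 while 37 were lower. The part of strain and of RNA selection in these values was not tested, and the account below is of protein-coding genes. Among 12638 of these tested, 3699 were higher in 4T1 (29.3%) and 3322 were lower (26.3%), and at least 2-fold differences numbered 1418 (11.2%) and 1144 (9.05%). Their median log2 difference was -0.0023 over MC38 and 0.05 over LLC. LLC replicate 3 stood apart from its group in the chi-square of counts, which included the left-out genes. Per degree of freedom it was 49.3 and 41.3 against the other LLC libraries, where other pairs within a line gave 2.62 to 12. Correlations of log2 CPM set this library less apart, at 0.9928 and 0.9922 against 0.9934 to 0.9972 in other pairs. The gene Gm26917 took 2.97%, 2.15% and 0.967% of counts in LLC replicates 1, 2 and 3. Its part in the chi-square was not tested. Without LLC replicate 3, 4660 genes were higher in 4T1 and 4589 were lower.

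Epithelial genes were higher in 4T1 almost throughout, many of them with no count at all in the other lines. Of 36 genes for junctions and adhesion, all of which passed the filter, 31 were higher than in both lines, 30 of them at least 2-fold, and 0 were lower. The median log2 difference of the list was 8.19 over MC38 and 10.22 over LLC. With genes that had no count in a line set at their lower bound, the medians were 7.63 and 7.49. The medians of all genes tested were -0.04 and 0. This list count and those below stand beside 29.1% higher and 29.0% lower among all genes tested. Among protein-coding genes alone, the shares were 29.3% and 26.3%. Levels below are counts scaled to a common library size with TMM factors (CPM), which are not divided by gene length and are compared only between lines.

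Cdh1, which encodes E-cadherin (chr8:106603351-106670246), had 412, 407 and 408 CPM in the 4T1 libraries, against 0.653, 0.540 and 0.511 CPM in MC38 and 0 counts in each LLC library. The log2 difference was 9.49 ± 0.069 (SE) over MC38 (adjusted p = 2.08e-16), and the level was at least 11805-fold higher than in LLC. Such bounds set a line without a count at 3 counts over its 3 libraries. Epcam, a cell adhesion molecule of simple epithelia (chr17:87635979-87651129), had 52.4, 54.6 and 52.5 CPM in 4T1 and 0 counts in the other 6 libraries, which made it at least 1563-fold higher than in MC38 and 1535-fold higher than in LLC. The desmosomal genes Dsp (55.9 to 56.4 CPM) and Dsg2 (57.9 to 60.2 CPM) were likewise read in 4T1 alone. Perp, a desmosomal membrane protein and p53 target, had 129, 135 and 130 CPM in 4T1 and 0 counts elsewhere.

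The junction list also held a membrane protease, an inhibitor and an anchoring protein. St14, the membrane serine protease matriptase, averaged 182 ± 4.55 CPM in 4T1, 0.295 ± 0.0731 CPM in MC38 and 0.150 ± 0.0791 CPM in LLC (SD, n = 3 each). Spint2, which inhibits such proteases (chr7:29256323-29281912), had 166, 177 and 172 CPM in 4T1, 0 counts in MC38 and 1 count in LLC. Lad1, an anchoring filament protein of basement membranes (chr1:135818598-135833342), had 149, 158 and 154 CPM in 4T1, 2 counts in MC38 and 0 counts in LLC.

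The exceptions among the junction genes were found mostly on the MC38 side. Jup, plakoglobin, averaged 56.6 CPM in 4T1, 141 CPM in MC38 and 0.138 CPM in LLC. Cldn4, a tight junction claudin, averaged 50.5 CPM in 4T1 and 81.9 CPM in MC38, with 0 counts in LLC. Llgl2, a polarity protein, averaged 23.4 CPM in 4T1, 29.1 CPM in MC38 and 0.615 CPM in LLC. Pkp2 averaged 40.8 CPM in 4T1, between 27.9 CPM in MC38 and 43.2 CPM in LLC. Cdh3, P-cadherin, was low throughout, with 0.346 CPM in 4T1, 0.329 CPM in MC38 and 0.0249 CPM in LLC.

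Of 7 keratins tested from a list of 14, 6 were higher in 4T1 and 0 were lower, Krt8 being the exception. Krt18, the type I keratin of simple epithelia, had 778, 800 and 775 CPM in 4T1, against 0.550, 0.573 and 0.238 CPM in MC38 and 0 counts in LLC (log2 difference 10.74 ± 0.11 over MC38, at least 22648-fold over LLC). Its type II partner Krt8 was not counted, since 4T1 (697, 740 and 732 CPM) lay below MC38 (2538, 2606 and 2533 CPM) and above LLC (208, 206 and 231 CPM). The 3 lines did not overlap for Krt8. Krt7 averaged 667 ± 20.3 CPM in 4T1 and 1.98 ± 0.195 CPM in MC38 (SD, n = 3 each), with 0 counts in LLC. Krt14, a basal keratin, was low in 4T1 at 4.66 CPM, and the basal genes Krt5, Krt17 and Trp63 did not pass the filter.

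Factors that maintain the epithelial state were higher in 9 of the 10 cases tested from a list of 14, and 0 were lower. The splicing regulators Esrp1 and Esrp2 averaged 34.3 and 26.7 CPM in 4T1, and between them they had 1 count in the 6 other libraries. Grhl2, a grainyhead factor that activates junction genes, had 40.0, 40.8 and 37.9 CPM in 4T1, 10 counts in all of MC38 and 1 count in LLC. Klf5, a factor of proliferating epithelia, was less far apart, with 165 ± 2.01 CPM in 4T1, 27.0 ± 1.92 CPM in MC38 and 16.3 ± 2.80 CPM in LLC (SD, n = 3 each). Only Grhl1 among the tested factors was not counted (2.14 CPM in 4T1, 2.91 CPM in MC38, 0 counts in LLC).

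**Figure D1:**
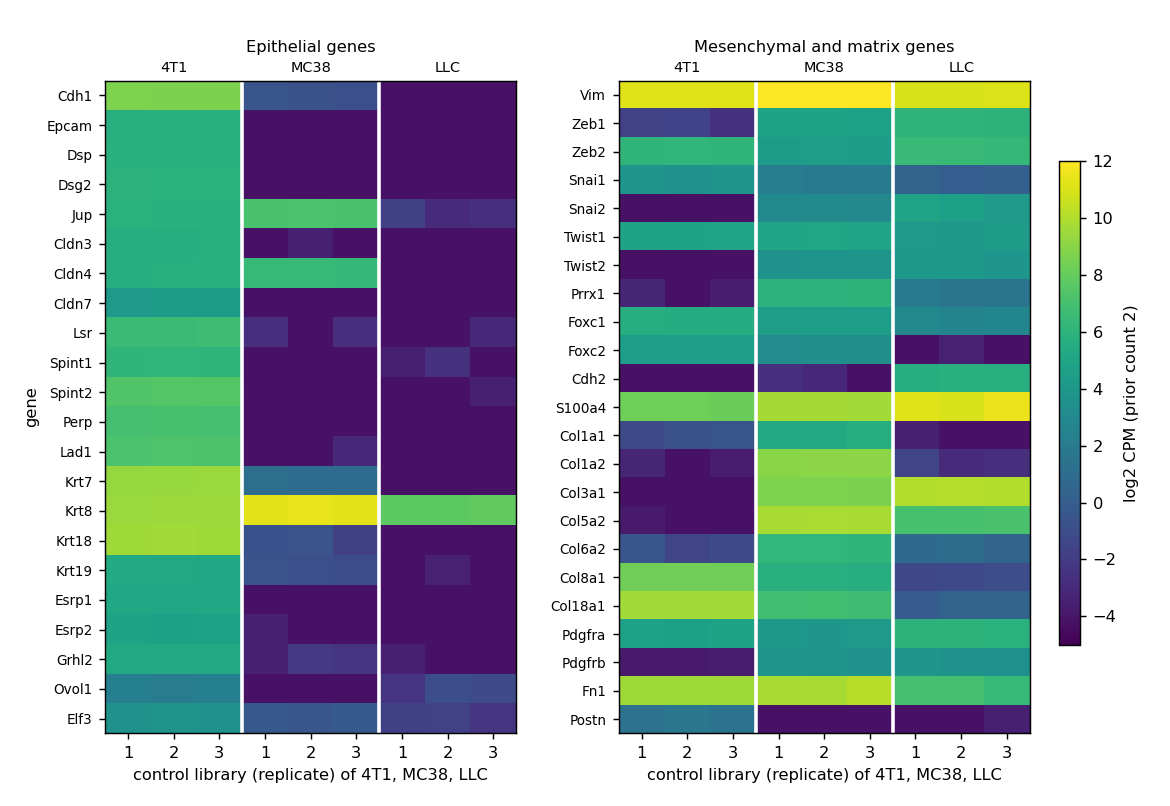
Each row is a gene and each column a DMSO control library, in the order 4T1, MC38, LLC; colour gives log2 CPM with a prior count of 2, so that a gene without a count lies near the dark end. The left panel shows epithelial genes, which are bright in the 3 4T1 columns except that Krt8, Jup and Cldn4 are brighter in MC38; the right panel shows mesenchymal and matrix genes, where Zeb1, Snai2, Twist2, Prrx1, Col3a1 and Col5a2 are dark in 4T1 while Zeb2, Snai1 and Vim are not.

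Promoters of the 3 members with the largest difference that have an entry among RefSeq promoters (GRCm38.p6, 250 bases before to 50 after the start) are shown because the E-box that ZEB and SNAI factors bind can be read in them, with Epcam added after its values were seen. Sequences run 5′ to 3′ on the gene's strand, and capitals mark CAGGTG or CACCTG, the same motif on either strand, 2 forms that cannot overlap each other.
Spint2, chr7:29281928-29282227, minus strand: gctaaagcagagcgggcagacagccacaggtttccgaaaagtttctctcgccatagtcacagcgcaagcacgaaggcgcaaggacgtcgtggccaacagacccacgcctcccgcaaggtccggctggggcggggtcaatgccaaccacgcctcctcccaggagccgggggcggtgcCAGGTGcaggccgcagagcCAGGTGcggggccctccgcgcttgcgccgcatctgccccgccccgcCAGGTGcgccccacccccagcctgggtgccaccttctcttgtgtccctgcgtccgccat
Lad1, chr1:135818348-135818647, plus strand: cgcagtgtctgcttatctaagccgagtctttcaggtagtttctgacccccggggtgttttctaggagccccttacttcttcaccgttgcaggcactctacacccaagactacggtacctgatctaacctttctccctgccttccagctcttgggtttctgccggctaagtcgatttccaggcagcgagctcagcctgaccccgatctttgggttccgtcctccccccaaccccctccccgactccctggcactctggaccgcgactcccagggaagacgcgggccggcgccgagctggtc
Dsp, chr13:38151044-38151343, plus strand: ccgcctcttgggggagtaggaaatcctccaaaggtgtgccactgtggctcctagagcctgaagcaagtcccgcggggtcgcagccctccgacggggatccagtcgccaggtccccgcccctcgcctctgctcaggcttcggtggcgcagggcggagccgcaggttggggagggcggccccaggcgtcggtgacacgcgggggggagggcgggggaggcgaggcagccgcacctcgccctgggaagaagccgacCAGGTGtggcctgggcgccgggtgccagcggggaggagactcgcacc
Epcam, chr17:87635729-87636028, plus strand: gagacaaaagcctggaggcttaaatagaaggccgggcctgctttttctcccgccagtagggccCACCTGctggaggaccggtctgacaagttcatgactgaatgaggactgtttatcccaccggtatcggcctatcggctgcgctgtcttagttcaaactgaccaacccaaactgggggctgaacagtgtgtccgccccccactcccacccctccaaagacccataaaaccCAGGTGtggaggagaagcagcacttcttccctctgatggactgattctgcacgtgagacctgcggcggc

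The motif occurred 3 times in the Spint2 window, 2 times in Epcam, 1 time in Dsp and 0 times in Lad1. Of the 50 genes in the junction and factor lists, 26 had a promoter entry, and 19 of these (73.1%) held at least 1 match. Among the 21 with an entry that were higher in 4T1, 17 (81.0%) did. For comparison, 20.2% of all 32851 promoters in the table held a match, as did 20.8% of 9864 protein-coding genes tested. The share was 32.3% of 1001 protein-coding genes at least 2-fold higher in 4T1 and 21.5% of 843 at least 2-fold lower. A match is a description of letters, not a binding site.

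Mesenchymal regulators did not move as a block. Of 19 genes tested from a list of 21, 4 were higher in 4T1 than in both lines and 9 were lower, against 29.1% and 29.0% of all genes tested. The list's median log2 differences were -1.47 over MC38 and -0.30 over LLC. Zeb1, the repressor named above, had 0.250, 0.282 and 0.113 CPM in 4T1, against 27.5, 28.3 and 27.1 CPM in MC38 and 65.7, 67.1 and 62.6 CPM in LLC. No 4T1 library overlapped the others, and the log2 differences were -6.94 ± 0.12 and -8.18 ± 0.11. Snai2 and Twist2 had 0 counts in 4T1, so they were at least 429-fold and 702-fold lower than in MC38, and at least 1225-fold and 834-fold lower than in LLC. Prrx1, a homeobox factor of mesenchyme, averaged 0.0267 CPM in 4T1, 61.6 CPM in MC38 and 3.23 CPM in LLC.

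The other repressors of the same families were present in 4T1. Zeb2 had 69.3, 71.6 and 69.2 CPM in 4T1, between MC38 (20.3, 21.5 and 19.8 CPM) and LLC (87.6, 90.4 and 81.0 CPM), and it was not counted. Snai1 was higher in 4T1, with 14.7, 12.1 and 14.1 CPM against 4.71, 3.91 and 4.16 CPM in MC38 and 1.34, 1.01 and 1.11 CPM in LLC (log2 differences 1.68 ± 0.11 and 3.55 ± 0.13). The forkhead genes Foxc1 and Foxc2 and the matrix gene Postn were also higher. Twist1 averaged 29.1 CPM in 4T1, 31.0 CPM in MC38 and 18.0 CPM in LLC.

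Vim, the intermediate filament vimentin, averaged 2298 ± 36.0 CPM in 4T1, 4148 ± 73.8 CPM in MC38 and 2089 ± 118 CPM in LLC (SD, n = 3 each). It was lower than in MC38 by a log2 difference of -0.85 ± 0.048 and higher than in LLC by 0.14 ± 0.048, the call against LLC being lost without LLC replicate 1 (0.11, adjusted p = 0.0619), with upper quartile factors (0.03, adjusted p = 0.559), with a filter of 5 CPM (adjusted p = 0.129) and with 6 libraries per comparison (adjusted p = 0.051). Cdh2, N-cadherin, had 0 counts in 4T1, 5 counts in MC38 and 48.3, 54.5 and 54.0 CPM in LLC. S100a4, a calcium-binding protein of motile cells, was lower in 4T1 (298 ± 3.44 CPM) than in MC38 (826 ± 21.5 CPM) and LLC (2400 ± 423 CPM; SD, n = 3 each).

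Among 21 collagen chains tested, 7 were higher in 4T1 and 7 were lower, against 29.1% and 29.0% of all genes tested. Col3a1, a fibrillar collagen (chr1:45311538-45349706), had 0 counts in 4T1, against 421, 417 and 392 CPM in MC38 and 1049, 1084 and 1049 CPM in LLC, which made it at least 20928-fold and 54100-fold lower. Its neighbour on chromosome 1, Col5a2, had 1 count in all of 4T1, against 902 ± 23.4 CPM in MC38 and 135 ± 2.69 CPM in LLC (SD, n = 3 each). Fkbp10, a collagen chaperone, averaged 0.0064 CPM in 4T1, 207 CPM in MC38 and 102 CPM in LLC, and Aebp1, a collagen-binding matrix protein, 0.105 CPM in 4T1, 106 CPM in MC38 and 250 CPM in LLC. Col1a1 and Col1a2, the chains of type I collagen, were high in MC38 alone. Col1a2 averaged 0.0267 CPM in 4T1, 521 CPM in MC38 and 0.161 CPM in LLC, and its call against LLC was lost without LLC replicate 1 (-1.62, adjusted p = 0.0864).

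The collagen chains that were higher in 4T1 included Col27a1, a fibrillar collagen at a low level (0.871 CPM in 4T1, 1 count in MC38 and 1 count in LLC). Col18a1, the source of endostatin, had 790, 802 and 791 CPM in 4T1, against 109, 115 and 107 CPM in MC38 and 0.93, 1.27 and 1.3 CPM in LLC. Col8a1 averaged 316 ± 5.32 CPM in 4T1, 51.8 ± 2.85 CPM in MC38 and 0.391 ± 0.0578 CPM in LLC (SD, n = 3 each). Among 21 laminins and integrins tested, 6 were higher and 4 were lower, shares no larger than the 29.1% and 29.0% of all genes tested. The higher ones included the laminin chains Lamb3 and Lama5 and Itga2, an integrin subunit that binds collagen (40.8 CPM in 4T1, 0.0681 CPM in MC38, 0 counts in LLC). Itgb4, the hemidesmosome integrin from the junction list, averaged 106 CPM in 4T1, 0.386 CPM in MC38 and 1.32 CPM in LLC.

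Matrix proteases were higher in 9 of 24 cases tested and lower in 1, Adamts4, against 29.1% and 29.0% of all genes tested. Mmp3, stromelysin, had 43.0, 42.8 and 41.3 CPM in 4T1, and its means were 0.0456 CPM in MC38 and 0.474 CPM in LLC. Mmp9, a gelatinase, averaged 36.4 ± 1.55 CPM in 4T1, 0.442 ± 0.180 CPM in MC38 and 0.0715 ± 0.0749 CPM in LLC (SD, n = 3 each). Mmp13 averaged 7.49 CPM in 4T1 and had 1 count in each of the other lines, and Mmp15 and Adam12 had none there. Plau, urokinase, was not counted (68.8 CPM in 4T1, 188 CPM in MC38, 2.35 CPM in LLC).

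Tissue markers were examined next. Mammary genes were higher in 7 of 11 cases tested from a list of 20, and 1, Aldh1a3, was lower. Gata3, the factor of luminal mammary cells, had 60.2, 55.3 and 59.2 CPM in 4T1, against 0.309, 0.472 and 0.0341 CPM in MC38 and 3 counts in LLC. Tfap2a, a factor of luminal and skin epithelium, averaged 35.9 CPM in 4T1, 3.33 CPM in MC38 and 7.77 CPM in LLC, and Lcn2, lipocalin 2, 15.3 CPM in 4T1 against 0 counts in MC38 and 1 count in LLC. Elf5, the alveolar factor, the receptors Pgr and Prlr and the milk genes Csn2, Wap and Lalba had 0 counts in all 9 libraries. Esr1 was near level, with 11.9 CPM in 4T1, 12.1 CPM in MC38 and 13.5 CPM in LLC.

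MC38 and LLC carried few markers of their labelled organs. Cdx2 and Nkx2-1, the defining factors of intestine and lung, had 0 counts in every library, as did Cdx1, Krt20 and the surfactant genes Sftpa1, Sftpc and Sftpd. Of 18 intestinal genes 5 were tested, and 2 were higher in 4T1 and 1 was lower. Gpa33, an antigen of intestinal epithelium, was read in 4T1 (54.0, 53.6 and 51.9 CPM) with 1 count in MC38 and 0 counts in LLC. Ephb2 was the other higher gene. Lgals4 was the lower one, with 7 counts in 4T1, 83 counts in MC38 and 51 counts in LLC. Of 14 lung genes 3 were tested, and Hopx was lower in 4T1, while 0 were higher. The higher count was 1 in each fit that left out 4T1 replicate 2 or any 1 MC38 or LLC library. It was also 1 with all 18 libraries and with 6 libraries per comparison. Under DESeq2 and with no filter it was 2, of 7 tested.

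Markers of other cell types gave low sums outside the fibroblast list. The 10 fibroblast genes summed to 25.5 to 27.9 CPM in 4T1, 1022 to 1049 CPM in MC38 and 1117 to 1160 CPM in LLC. Collagens made up most of the larger sums: Col1a2 (521 CPM) and Col3a1 (410 CPM) in MC38 and Col3a1 (1061 CPM) in LLC. Of the 6 tested, 0 were higher and 3 were lower in 4T1, and Thy1, Fap, Lum and Dpt were at or near 0 everywhere. The 12 leukocyte genes summed to 33.5 to 34.7 CPM in 4T1, 7.43 to 8.13 CPM in MC38 and 2.65 to 3.24 CPM in LLC. The 4T1 sum came mostly from Cd74 (24.5 CPM) and Cd68 (9.35 CPM), the 2 higher genes of 5 tested. Lyz2 was lower, with 3 counts in 4T1, 38 counts in MC38 and 129 counts in LLC. Ptprc, which defines leukocytes, had 11 counts over the 4T1 libraries and 1 in each other line. The 10 endothelial genes summed to 16.1 to 18.1 CPM in 4T1, 16.4 to 17.2 CPM in MC38 and 21.8 to 25 CPM in LLC, with 0 higher and 1 lower of 4 tested (0 lower in fits of 6 libraries per comparison). In such bulk RNA, fewer cells of a type and less RNA per cell cannot be told apart.

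Homeobox genes of the Hox clusters, which record position along the body axis, separated the lines gene by gene. Of 24 tested from a list of 39, 4 were higher in 4T1 and 10 were lower, against 29.1% and 29.0% of all genes tested. The 4 higher genes, Hoxa2, Hoxa3, Hoxa5 and Hoxa6, lie in the anterior part of the HoxA cluster, where Hoxa4 was not counted (0.432 CPM in 4T1, 2.19 CPM in MC38, 0.487 CPM in LLC). Hoxa5 had 59.3, 55.2 and 55.8 CPM in 4T1, against 4.81, 4.25 and 3.37 CPM in MC38 and 1.48, 1.49 and 1.76 CPM in LLC. Within the same cluster Hoxa9 averaged 0.840 ± 0.0265 CPM in 4T1, 36.8 ± 1.87 CPM in MC38 and 47.5 ± 3.16 CPM in LLC (SD, n = 3 each), and Hoxa11 had 0 counts in 4T1 against 11.3 CPM in MC38 and 26.8 CPM in LLC. Hoxa7, Hoxa10 and Hoxa13 were lower too. Hoxd8 had 0 counts in 4T1, 12.5 CPM in MC38 and 60.2 CPM in LLC, and Hoxd4, Hoxc4, Hoxc5 and Hoxc6 were lower in 4T1. Hoxc9, Hoxc10 and Hoxc11 were read in MC38 alone, and Hoxd9 and Hoxd10 in LLC alone.

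**Figure D2:**
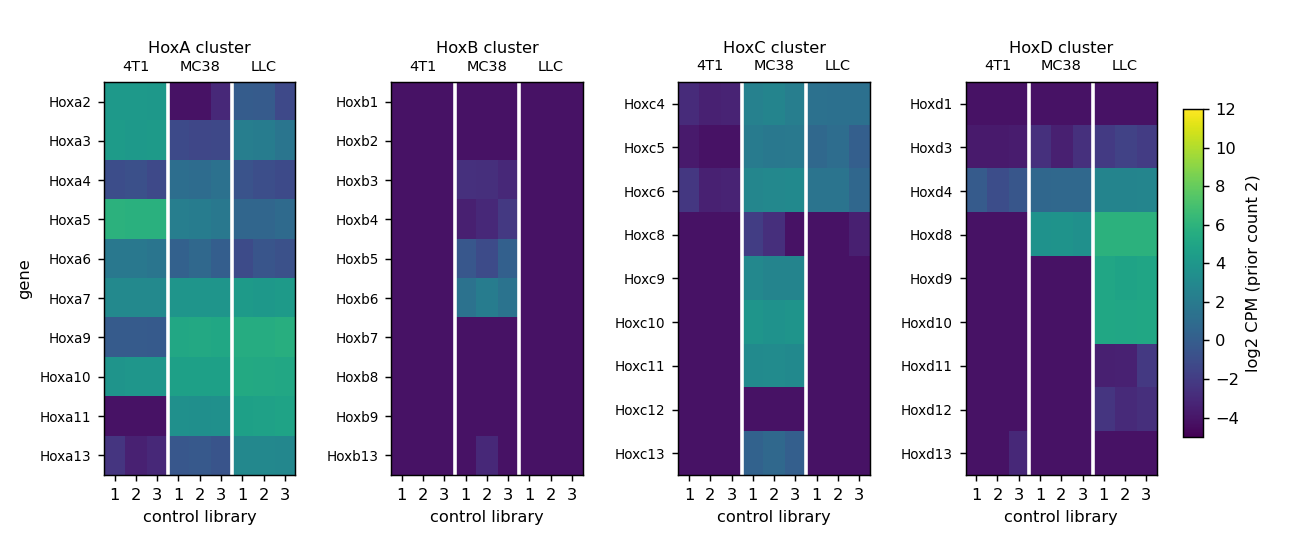
The 4 panels show genes of the Hox clusters in chromosomal number order from top to bottom, with the DMSO control libraries of 4T1, MC38 and LLC from left to right and colour giving log2 CPM with a prior count of 2. In the HoxA panel 4T1 is brighter than the other lines at Hoxa2, Hoxa3, Hoxa5 and Hoxa6 and darker at Hoxa9, Hoxa11 and Hoxa13, while its HoxB and HoxC panels are dark throughout.

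Cytokine genes were higher in 4T1 in 16 of 28 cases tested and lower in 2, Il15 and Ccl9. Ccl9 lost its call over LLC (-1.27, adjusted p = 0.0403) without 4T1 replicate 1 (0.135) or 2 (0.0763), without MC38 replicate 3 (0.052), without LLC replicate 2 (0.234) or 3 (0.0824), and under DESeq2 (0.0703), limma-voom (0.0581), the replicate block (0.0674), library totals alone (0.0559), thinned counts (0.096) and the test against a 1.5-fold difference (0.104), all adjusted p-values. Csf3, which encodes the granulocyte growth factor G-CSF (chr11:98701263-98703629), had 28.7, 29.6 and 28.0 CPM in 4T1, against 1.31, 1.35 and 1.33 CPM in MC38 and 0 counts in LLC. The log2 difference over MC38 was 4.43 ± 0.088 (adjusted p = 7.48e-13), and the level was at least 832-fold above LLC. Cxcl5, a chemokine that attracts neutrophils, had 33.0, 31.7 and 32.8 CPM in 4T1, 2 counts in MC38 and 0 counts in LLC. Cxcl1, another ligand of the receptor CXCR2, averaged 33.7 ± 0.765 CPM in 4T1, 12.9 ± 1.2 CPM in MC38 and 0.621 ± 0.0619 CPM in LLC (SD, n = 3 each).

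Csf1, the macrophage growth factor, had 463, 458 and 457 CPM in 4T1, against 261, 272 and 268 CPM in MC38 and 34.8, 39.9 and 38.3 CPM in LLC. Il1a, Il23a, Tslp, Ccl20 and the platelet growth factor gene Pdgfb had at most 1 count over the LLC libraries and were higher in 4T1 than in both lines. Tgfb1 averaged 50.4 ± 1.20 CPM in 4T1, 8.65 ± 0.250 CPM in MC38 and 1.45 ± 0.448 CPM in LLC (SD, n = 3 each). Ccl2, the monocyte chemokine, belonged to MC38, with 5.88 CPM in 4T1, 143 CPM in MC38 and 6.32 CPM in LLC. Csf2, GM-CSF, did not pass the filter and had 46 counts in 4T1, 3 counts in MC38 and 0 counts in LLC.

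Among growth factor receptors, Fgfr2 and Fgfr1 showed opposite patterns. Fgfr2 had 98.3, 97.5 and 98.6 CPM in 4T1, 3 counts in MC38 and 0 counts in LLC. Fgfr1 had 0.212, 0.229 and 0.0451 CPM in 4T1, against 96.3, 96.4 and 104 CPM in MC38 and 168, 151 and 126 CPM in LLC (log2 differences -9.16 ± 0.23 and -9.75 ± 0.22). The receptor Egfr was lower in 4T1 (4.42 ± 0.334 CPM) than in MC38 (74.3 ± 5.30 CPM) and LLC (18.1 ± 1.98 CPM; SD, n = 3 each), whereas its ligand genes Tgfa, Areg, Hbegf and Btc were higher and Ereg was lower. Tgfa had 53.2, 52.7 and 51.0 CPM in 4T1, 2.06, 1.92 and 1.67 CPM in MC38 and 0 counts in LLC. Over the whole list, 10 of 28 tested genes were higher and 5 were lower, against 29.1% and 29.0% of all genes tested. Among Notch genes 10 of 14 were higher and 2 were lower: the receptor gene Notch1 averaged 29.7 CPM in 4T1, 7.94 CPM in MC38 and 7.01 CPM in LLC, and Notch2 averaged 101 CPM in 4T1, 299 CPM in MC38 and 571 CPM in LLC. Of 27 Wnt pathway genes, 8 were higher and 7 were lower, near the 29.1% and 29.0% of all genes tested. The higher ones included Wnt7a at 28.6 CPM in 4T1 against 0.0906 CPM in MC38 and 0 counts in LLC, and the lower ones the feedback target Axin2 at 1 count in 4T1 against 4.71 CPM in MC38 and 0.378 CPM in LLC.

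**Figure D3:**
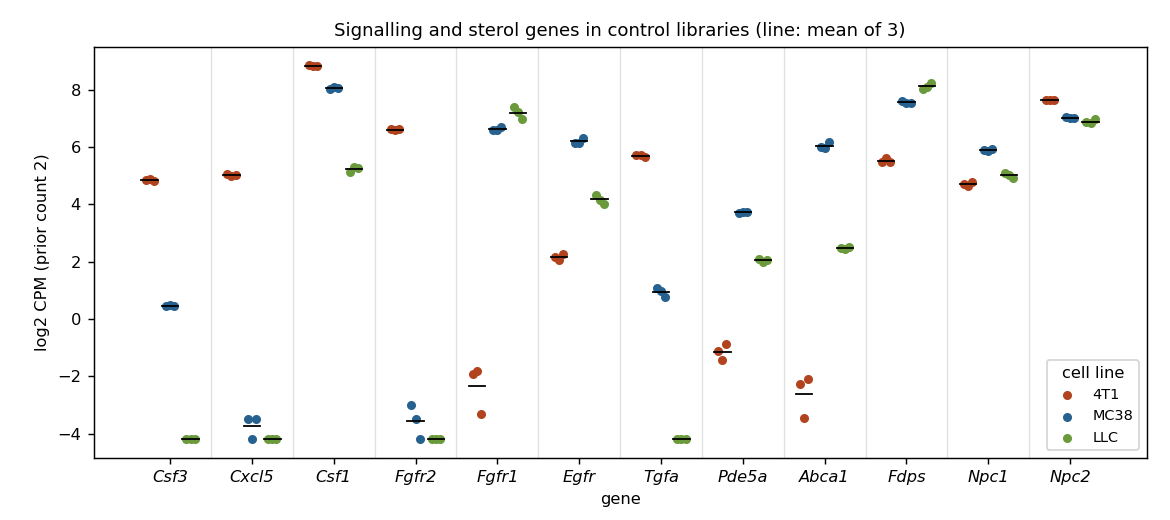
Each point is a DMSO control library, coloured by line with 4T1 leftmost for each gene, and the vertical axis gives log2 CPM with a prior count of 2; black lines are means of 3 libraries. Csf3, Cxcl5, Csf1, Fgfr2, Tgfa and Npc2 lie highest in 4T1, and Fgfr1, Egfr, Pde5a, Abca1, Fdps and Npc1 lie lowest there.

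Interferon-induced genes were higher in 4T1 in 19 of 35 cases tested and lower in 1, Ifit2. The median log2 difference was 0.34 over MC38 and 3.39 over LLC. Isg15, a ubiquitin-like modifier, had 26.8, 26.4 and 26.3 CPM in 4T1, against 4.12, 4.08 and 3.82 CPM in MC38 and 0.793, 0.971 and 0.684 CPM in LLC. Irf7, the factor that amplifies the response, averaged 9.49 ± 1.11 CPM in 4T1, 1.54 ± 0.452 CPM in MC38 and 0.907 ± 0.154 CPM in LLC (SD, n = 3 each). In the sildenafil libraries 36 members of this list were higher in 4T1 than in both lines and 0 were lower.

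Genes for antigen presentation by MHC class I were higher in 9 of 20 cases and lower in 2, H2-T22 and Calr. The shares among all genes tested were 29.1% and 29.0%. B2m, the shared light chain, had 439, 436 and 444 CPM in 4T1, 277, 265 and 255 CPM in MC38 and 161, 162 and 177 CPM in LLC. The peptide transporter gene Tap2 averaged 73.7 CPM in 4T1, 40.2 CPM in MC38 and 22 CPM in LLC. H2-D1 averaged 509 CPM in 4T1, 328 CPM in MC38 and 118 CPM in LLC, and H2-K1 93.4 CPM in 4T1, 256 CPM in MC38 and 7.64 CPM in LLC. The H2 heavy chain genes are close copies of each other and differ between mouse strains, so counts of these genes are uncertain, as is that of Ifi202b (109 CPM in 4T1, 0 counts elsewhere), a member of a family of near copies.

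Oncogenes and tumour suppressors were higher in 11 and lower in 9 of 30 cases tested, not far from the shares among all genes tested (29.1% and 29.0%). Myc had 606, 616 and 623 CPM in 4T1, against 70.4, 74.6 and 75 CPM in MC38 and 416, 382 and 319 CPM in LLC. In the sildenafil libraries Myc was not called over LLC (0.08, adjusted p = 0.0934). Smad4, the shared mediator of TGF-β signals, averaged 125 ± 2.95 CPM in 4T1, 14.1 ± 0.578 CPM in MC38 and 89.1 ± 6.58 CPM in LLC (SD, n = 3 each). Trp53 averaged 141 CPM in 4T1, 96.0 CPM in MC38 and 37.9 CPM in LLC. Of its 19 tested targets 7 were higher and 2 were lower, against 29.1% and 29.0% of all genes tested. The p53 target Cdkn1a averaged 17.9 CPM in 4T1, 2.37 CPM in MC38 and 10.7 CPM in LLC. Cdkn2a and Cdkn2b, which lie side by side and encode cell cycle inhibitors, had 0 counts in all 9 libraries.

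Replication and mitosis genes were lower in 4T1 in 20 of 30 cases and higher in 2. The median log2 difference was -0.45 over MC38 and -0.58 over LLC, and between 15 and 20 members were lower across the scalings tried. Mki67 had 228, 232 and 204 CPM in 4T1, against 567, 559 and 652 CPM in MC38 and 1242, 1269 and 1045 CPM in LLC. The ribonucleotide reductase gene Rrm2 averaged 127 CPM in 4T1, 289 CPM in MC38 and 300 CPM in LLC. Ccne1, cyclin E1 from the oncogene list, averaged 4.95 ± 0.164 CPM in 4T1, 28.3 ± 1.37 CPM in MC38 and 44.7 ± 2.47 CPM in LLC (SD, n = 3 each). The 2 exceptions were Cdt1, which licenses replication origins (204 CPM in 4T1, 116 CPM in MC38, 86.8 CPM in LLC), and the mitotic factor Foxm1.

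Sterol genes concern the study's subject. Enzymes of cholesterol synthesis were lower in 4T1 in 14 of 20 cases, and 1, Sqle, was higher. Median log2 differences were -1.08 over MC38 and -0.64 over LLC. Fdps, which makes farnesyl diphosphate, had 44.9, 49.7 and 44.4 CPM in 4T1, against 196, 188 and 187 CPM in MC38 and 261, 276 and 301 CPM in LLC (log2 differences -2.04 ± 0.058 and -2.59 ± 0.059). No 4T1 library overlapped the other lines. Sqle, squalene epoxidase, averaged 109 CPM in 4T1, 70.1 CPM in MC38 and 68.0 CPM in LLC. In the sildenafil libraries 5 of these enzymes were lower in 4T1 than in both lines and 4 were higher.

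Genes for sterol uptake, regulation, transport and efflux were mixed, with 7 of 19 higher and 5 lower, against 29.1% and 29.0% of all genes tested. The higher count was 2 in a test against a 1.5-fold difference and 4 with a filter of 5 CPM. Npc1, which exports cholesterol from lysosomes, had 26.5, 25 and 27.5 CPM in 4T1, against 59.5, 58.9 and 61.2 CPM in MC38 and 33.9, 32.4 and 30.6 CPM in LLC (log2 differences -1.19 ± 0.051 and -0.29 ± 0.052). Over LLC it was not called in the sildenafil libraries (-0.05, adjusted p = 0.499). Its partner Npc2 had 200, 200 and 200 CPM in 4T1, against 132, 129 and 129 CPM in MC38 and 117, 114 and 126 CPM in LLC (0.62 ± 0.041 and 0.75 ± 0.041). Insig1, which retains the sterol sensor in the endoplasmic reticulum, averaged 43.0 CPM in 4T1, 142 CPM in MC38 and 168 CPM in LLC. The efflux pump gene Abca1 averaged 0.123 CPM in 4T1, 66.6 CPM in MC38 and 5.54 CPM in LLC, while Abcg1, another pump, was read in 4T1 alone at 2.58 CPM. Srebf2, the factor that drives the pathway, averaged 156 CPM in 4T1, 88.7 CPM in MC38 and 132 CPM in LLC. Its difference over LLC (0.25 ± 0.099, adjusted p = 0.0436) lost its call without any 1 of the 4T1 libraries (0.25 to 0.26, adjusted p 0.0749 to 0.0775) or without MC38 replicate 2 (adjusted p = 0.0543) or 3 (0.0533). It was also lost with RLE (0.0504) or upper quartile factors (0.171), a filter of 5 CPM (0.114), protein-coding genes only (0.0519), thinned counts (0.101) and 6 libraries per comparison (0.0755), all adjusted p-values.

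The gene for sildenafil's target was lowest in 4T1. Pde5a (chr3:122728947-122859374) had 0.404, 0.317 and 0.496 CPM in 4T1, against 12.9, 13.4 and 13.4 CPM in MC38 and 4.24, 3.88 and 4.10 CPM in LLC. The log2 differences were -5.04 ± 0.13 (adjusted p = 3.66e-13) and -3.34 ± 0.15 (adjusted p = 6.31e-11). Pde3b, which cGMP inhibits, had 1 count in 4T1, 63.7 CPM in MC38 and 5.37 CPM in LLC. Of 22 phosphodiesterase and cGMP genes tested, 6 were higher in 4T1 and 6 were lower, shares near those of all genes tested. Prkg2, a cGMP-dependent kinase, averaged 183 ± 1.3 CPM in 4T1, 44.7 ± 0.327 CPM in MC38 and 139 ± 4.68 CPM in LLC (SD, n = 3 each). Npr3, a natriuretic peptide receptor, averaged 62.1 CPM in 4T1 and 29.3 CPM in MC38 with 0 counts in LLC. The receptor Npr1, which makes cGMP, was lower in 4T1 (0.502 CPM) than in MC38 (9.67 CPM) and LLC (3.33 CPM), and so was Nos1.

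Slc16a3, the lactate exporter MCT4, had 3 counts in 4T1, against 82.8 ± 7.78 CPM in MC38 and 168 ± 12.2 CPM in LLC (SD, n = 3 each), and the glucose transporter gene Slc2a3 had 2 counts against 6.69 CPM in MC38 and 35.6 CPM in LLC. Slc2a1, the other main glucose transporter, was near level (119 CPM in 4T1, 122 CPM in MC38, 117 CPM in LLC). Among 30 glycolysis and hypoxia genes 8 were higher and 5 were lower, shares below the 29.1% and 29.0% of all genes tested. The higher ones included Car9, carbonic anhydrase 9 (35.3, 26.2 and 24.5 CPM in 4T1, 0.590 CPM in MC38, 0.455 CPM in LLC), Aldoc, Car12 and Ndrg1. Gapdh was among the lower ones. The lower count was 3 without LLC replicate 2, and a test against a 1.5-fold difference gave 5 higher and 1 lower. Bcat1, a branched-chain aminotransferase, had 1 count in 4T1, 120 CPM in MC38 and 189 CPM in LLC. Serine and proline synthesis genes were higher in 8 of 20 cases and lower in 2, against the same shares of all genes tested. The higher count was 5 with upper quartile factors and 3 in the test against 1.5-fold. The lower count was 1 without 4T1 replicate 1 or LLC replicate 2, where Shmt1 lost its call over LLC (adjusted p = 0.0882 and 0.0852). Amino acid and glucose transporters were higher in 6 and lower in 10 of 21, against 29.1% and 29.0% of all genes tested. Slc3a2 and Slc7a5, which form 1 amino acid exchanger, were higher. Of 28 glutathione and detoxification genes 5 were higher and 11 were lower, including Nqo1 (8.62 CPM in 4T1, 49.5 CPM in MC38, 20.6 CPM in LLC).

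**Figure D4:**
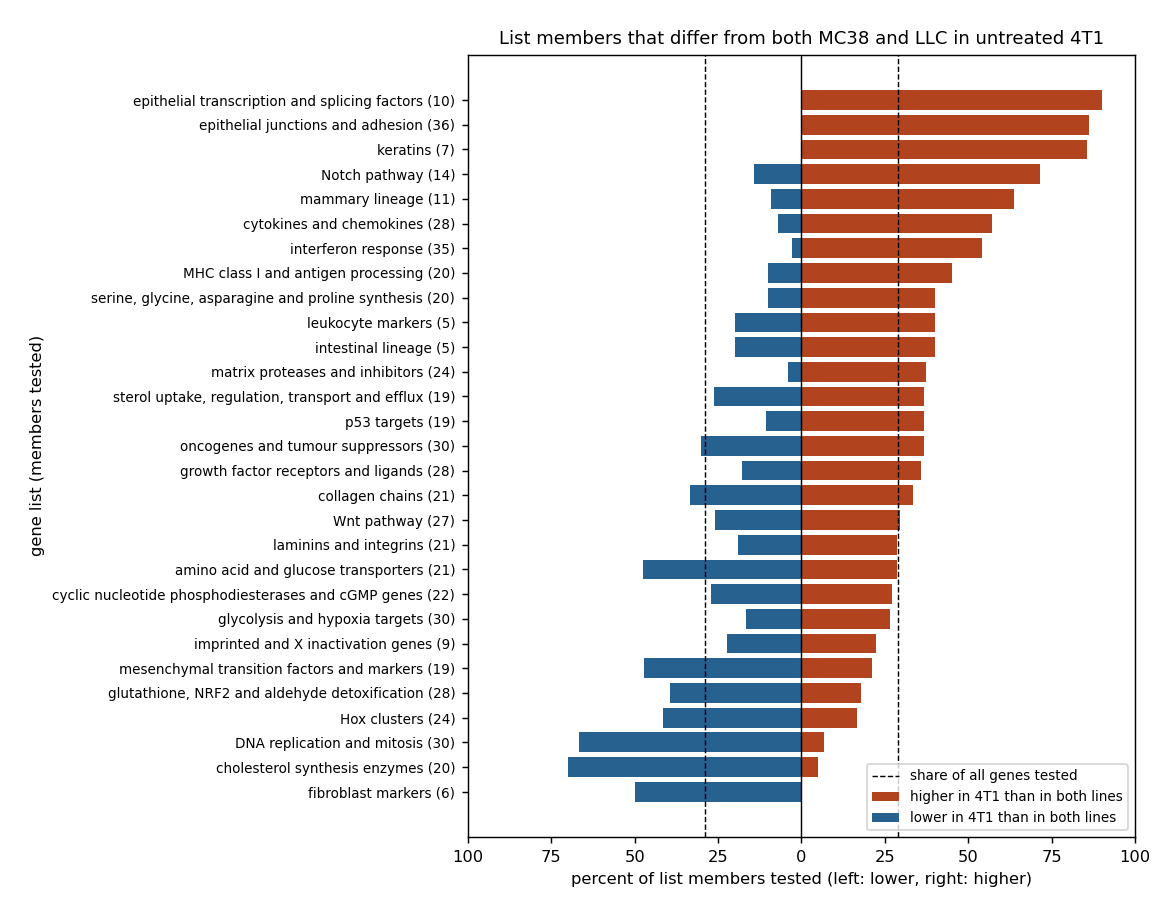
Bars give the percent of each list's tested members that were higher (right) or lower (left) in 4T1 than in both MC38 and LLC in the control libraries, with the number tested in brackets for lists of at least 5; dashed lines mark the shares among all genes tested, 29.1% and 29.0%. The epithelial lists extend farthest to the right, and cholesterol synthesis and DNA replication farthest to the left.

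Counting protein-coding genes with at least 5 CPM in every 4T1 library and 0 counts in the 6 other libraries, 50 genes were found, and 39 genes had the reverse pattern, where 12638 protein-coding genes were tested. Of the 50, 35 also had 0 counts in the MC38 and LLC sildenafil libraries, and 26 of the 39 had 0 counts in the 4T1 sildenafil libraries. Cdcp1, a membrane protein phosphorylated by Src kinases, led the first group with 167, 168 and 165 CPM in 4T1. It also held Cd24a, a mucin-like surface protein (81.7, 86.3 and 84.5 CPM), Fermt1, an integrin activator, and Bmp7. The second group held, besides Col3a1, Snai2, Twist2, Hoxa11 and Hoxd8, the genes Dpysl3 (478 CPM in MC38, 53.1 CPM in LLC), Ppic (160 CPM in MC38, 104 CPM in LLC) and Plxna2, a semaphorin receptor. Chromosome X held 1 gene of the first group and 8 of the second, and 398 of the 12638 protein-coding genes tested.

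Direction of change varied by chromosome among protein-coding genes. On chromosome 13, 18.2% of 455 genes tested were higher in 4T1 and 42.9% were lower, with median log2 differences of -0.41 over MC38 and -0.28 over LLC. Chromosome 19 had 41.2% of 447 higher and 17.7% lower, with medians of 0.38 and 0.17. Chromosomes 9, 14 and 17 had more higher than lower genes, and chromosomes 6 and 18 more lower than higher. Chromosome 8 differed in opposite ways from the other lines, with medians of -0.25 over MC38 and 0.77 over LLC. Of 13 protein-coding mitochondrial genes tested, 8 were higher and 2 were lower, whereas the 2 mitochondrial rRNA genes tested were lower. The median share of counts taken by mitochondrial genes was lowest for the 4T1 libraries (0.545%). The MC38 median was 0.752% and the LLC median 1.43%. Genes of the Y chromosome list had 0 counts in every library, and Xist had 4 counts in 4T1, 4 in MC38 and 13 in LLC.

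**Figure D5:**
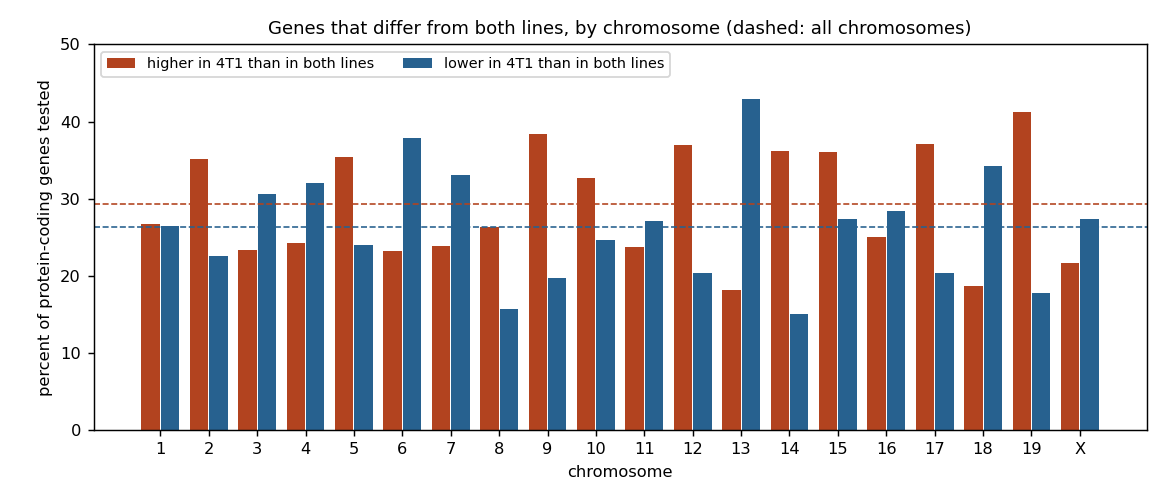
Paired bars give, for chromosomes 1 to 19 and X, the percent of protein-coding genes tested that were higher or lower in 4T1 than in both MC38 and LLC; the mitochondrial genes are not drawn, and dashed lines are the shares over all protein-coding genes tested, 29.3% and 26.3%. Among the chromosomes drawn, lower genes reach 42.9% on chromosome 13 and higher genes 41.2% on chromosome 19.

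The sildenafil libraries, which the rule did not use, gave the same lines a second time under treatment. They share line, medium and hours with the control libraries, so differences that go with these would recur. Of the 4458 higher genes, 3829 (85.9%) were higher in 4T1 than in both lines there and 48 were lower, where 33.0% of 15365 genes tested were higher. Of the 4449 lower genes, 3589 (80.7%) were lower and 43 were higher, against 28.5% lower of all genes tested. Among genes at least 2-fold apart, 1975 of 2076 higher (95.1%) and 1891 of 2182 lower (86.7%) were called the same way. In a test against a 1.5-fold difference in the control libraries, several list counts moved by over 1.5 times: 11 interferon genes, 4 MHC class I genes, 4 oncogenes and 4 Wnt genes were higher, and 8 cholesterol synthesis enzymes, 9 replication and mitosis genes and 3 oncogenes were lower. The junction list had 32 members higher and 0 lower in the treated libraries.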

How the data were processed

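RNA was sequenced from 18 libraries of 3 lines, of which the 9 DMSO controls (3 per line) form the comparison. Per the labels' protocols, oligo-dT selected, stranded libraries were read from both ends for 100 cycles. The rule, by contrast, took RNA selection to differ between the lines. The left-out genes took a median 0.00558% of counts in 4T1, 9.07% in MC38 and 7.14% in LLC. Whether 1 protocol held for every line was not tested. The file deposited by the authors holds expected counts, 1 row a gene. The tools named per the submitters' processing notes are RSEM 1.3.1, STAR 2.7.0f, cutadapt 1.18 and bcl2fastq 2.17, with build mm10. Neither the annotation release nor the strand setting is given in the sources used here, so overlapping and antisense genes may share reads, and RSEM divides reads between near-identical genes. All 55450 identifiers matched GENCODE M21.

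Expected counts were rounded and fitted with edgeR 4.0.16 in R 4.3.3 (quasi-likelihood F test with robust dispersions, 1 coefficient per line with 6 residual degrees of freedom, TMM factors, filterByExpr at its defaults). P-values were adjusted by Benjamini-Hochberg over all genes tested in each comparison, with a threshold of 0.05. Differences are log2 of 4T1 over the other line, and SE is the difference divided by the square root of F. For a single gene no fitted fold is printed against 0 counts: a bound uses 3 counts over a line's 3 libraries and covers counting error only. List medians are of fitted values, 0 counts included, and are given with such members at their bounds where that changes them. Ratios resting on 1 to 3 counts are given as those counts.

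In data simulated on 14677 genes, the rule recovered 72.3% of 1.5-fold, 87.5% of 2-fold and 96.9% of 4-fold changes, and 0.602% of its calls were wrong. That share rests on 1 wrong call. The simulation changed 65, 64 and 64 tested genes at these folds, in 4T1 alone, and gave the lines equal means otherwise. In the data 58.2% of genes tested were counted, so the simulated shares do not give the error there. The members and the 32 gene lists were chosen with earlier results of these data known. The naming rule took 12 protein-coding genes per direction with the largest smaller difference, up to 4 called members per list and direction, and 30 fixed genes; a few of these are not reported here, though list counts include them. Other list members and genes of the presence or absence groups were named after their values were seen. Alternatives were DESeq2 1.42.0, limma-voom (limma 3.58.1), other scalings, filters, samples and thresholds, unrounded counts, and each library left out. Plots used matplotlib 3.10.9 in Python 3.11.15.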

Additional observations from a re-analysis of the deposited data

Results flagged for a closer look

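Ifit2, an interferon-induced gene, was lower in 4T1 than in both lines in the control libraries, by log2 differences of -1.04 over MC38 and -0.73 over LLC. In the sildenafil libraries it was higher in 4T1 than in both, by 0.75 over MC38 and 1.33 over LLC. It is listed because all 4T1 libraries lay on 1 side of the other lines under DMSO and on the other side under sildenafil. The difference between treatments was not tested.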

How the results depend on the processing

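Depth limits only low genes here: 3 counts over a line's libraries correspond to 0.0196 CPM in 4T1, 0.0340 CPM in MC38 and 0.0347 CPM in LLC. Under the 24 alternatives that use control libraries, no counted gene was called in the opposite direction. Replicate numbers did not pair the libraries (correlations of same-numbered libraries -0.174 to 0.0318), and with the number as a replicate block 4360 genes were higher and 4340 lower, 2077 and 2142 of them at least 2-fold. Requiring 5 CPM in 3 libraries left 1164 higher and 947 lower genes at least 2-fold apart, and protein-coding genes alone gave 1130 lower ones; both settings test fewer genes. A test against a 1.5-fold difference counted 2525 higher and 2620 lower genes, with 4716 shared with the sildenafil libraries (7418 otherwise). Leaving out each library gave 4344 to 4789 higher and 4209 to 4589 lower genes, 2095 to 2246 and 2136 to 2268 at least 2-fold, and 7260 to 7492 shared with the sildenafil libraries. Across scalings 46.6% to 57.5% of calls were higher; library totals alone (5180 higher, 3832 lower) moved the median of all genes to 0.10 over MC38 and 0.08 over LLC. Of 9977 alternative values of named genes, 9894 kept direction and call, 71 lost the call, 0 gained it and 12 reversed. In the sildenafil libraries the reversed differences over LLC were Itga10 1.13, Adamts4 0.52, Il15 0.47, H2-T22 0.75, Ifit2 1.33, Acat2 0.0286, Insig1 0.39, Pfkfb4 0.13 and P4ha2 0.55, and over MC38 Lamb2 0.19, Ifit2 0.75 and Trp53 -0.18. Of 1600 alternative list counts, 1522 stayed within 1.5 times. The cause of these moves was not tested.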
